A study of Mus musculus with 32 samples.

Results

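The genes described here are 7 Alpha and Pi class glutathione transferase genes chosen by symbol from the mouse gene table, Gsta1, Gsta2, Gsta3 and Gsta4 of the Alpha class and Gstp1, Gstp2 and the pseudogene Gstp-ps of the Pi class. They are 7 of 34453 rows, and a further annotated Pi gene, Gstp3, is not among them. RNA was from the retinal pigment epithelium (RPE), the pigmented layer that supports the photoreceptors, of *rd1* mice, whose rods degenerate early. The control eye of each mouse received the vector AAV Best1 GFP alone, and the Nrf2 eye received it together with AAV Best1 Nrf2. Both eyes of a mouse therefore carried a GFP vector, and the Best1 promoter directs expression to the RPE. Per the study's methods, the Nrf2 vector had another capsid than the GFP vector and was given on top of it. Nrf2 eyes therefore received more vector in all, and capsid and dose cannot be told apart from Nrf2. The transgene is human NFE2L2, which encodes Nrf2, and it has a row of its own. Eyes were taken at P20 (7 mice) or P40 (9 mice), giving 32 libraries of 16548332 to 50542797 estimated counts. The labels call every mouse *rd1*, but the study's methods also name CD1 pairs, which do not have the *rd1* degeneration. Its *rd1* and CD1 pairs at P40 add up to as many as are labelled *rd1* here, and at P20 it counts fewer pairs than the labels. Whether some pairs at P40 are CD1 was not tested, and every P40 value, and each comparison of P40 with P20, carries that doubt. The labels mention separate sequencing runs without assigning libraries to them, and sample titles follow a different pattern at each age, so age and run cannot be told apart.

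Glutathione transferases join reactive, electron-poor molecules to the tripeptide glutathione, after which the conjugate can be exported and broken down. Alpha class enzymes also reduce lipid hydroperoxides, and the Alpha enzyme encoded by Gsta4 is known for its preference for 4-hydroxynonenal, an aldehyde formed when polyunsaturated lipids oxidize. Pi class enzymes conjugate many electrophiles, bind the stress kinase JNK and assist the peroxidase Prdx6. Nrf2 is a transcription factor that is freed from its inhibitor Keap1 under oxidative stress and, with small Maf proteins, binds antioxidant response elements near genes of this family. In the RPE, which takes up the oxidation-prone lipids of photoreceptor outer segments, these enzymes belong to the defence against lipid peroxidation products.

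All 12 RPE markers of a fixed list were above 3 counts in every library, so the labelled cell type was present throughout. The transgene was read at 1082 to 10438 CPM (counts divided by library size on the usual per-million scale, with TMM-adjusted sizes) in the Nrf2 eyes. In the control eyes it lay between 0 and 154 CPM apart from 1 library. That library, of the control eye of P20 mouse 3, held 1098 CPM, while the Nrf2 eye of P20 mouse 4 held 1082 CPM, the lowest of its group. These libraries were also the most alike of all 496 pairs, with a chi-square per degree of freedom over genes of 8.26 against 48.6 for the next pair. Calls at P20 are therefore also given without mice 3 and 4, while levels in CPM include them unless stated. The text calls them by their labels. Whether RNA of these libraries was mixed or pooled was not tested, and the P20 ranges, and the P20 overlaps that involve these eyes, carry that doubt.

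Several of these genes are close copies, which bears on every count below. Gsta4, Gsta1 and Gsta2 lie together on chromosome 9 of GRCm38, at chr9:78182774-78209349 (plus strand), chr9:78230656-78242684 (plus strand) and chr9:78331018-78355788 (minus strand). Gsta3 is on chromosome 1 at chr1:21240589-21265661 (plus strand). Gstp1 and Gstp2 are neighbours on the minus strand of chromosome 19, at chr19:4035407-4037985 and chr19:4040285-4046023, with 2299 bases between them. Each of these 6 genes has 7 exons in its principal transcript. Gstp-ps is a processed pseudogene with 1 exon and no annotated coding sequence, at chr1:192073820-192074450 (minus strand). The Gsta1 and Gsta2 coding sequences were 98.0% identical, and those of Gstp1 and Gstp2 98.1%. Gstp-ps matched Gstp2 at 623 of 628 aligned bases. Gsta3 was 74.1% and Gsta4 65.8% identical to Gsta1. Of the 31-base words in the principal transcript, 92.2% of those of Gsta1, 75.6% of Gsta2, 67.5% of Gstp1, 78.1% of Gstp2 and 78.9% of Gstp-ps also occurred in another gene. For Gsta3 the share was 1.05% and for Gsta4 it was 0%, so reads of these genes can be assigned more safely than reads of the others.

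The 60 coding bases in which Gsta1 and Gsta2 differ most are shown to make the closeness visible. Capitals mark bases that differ from Gsta1, and the stretch runs from coding base 449 to 508 of Gsta1. Gm3776, a neighbouring Gsta1-like gene outside the 7, is shown with them because it had no difference in this stretch and 2 in all 669 coding bases.
Gsta1: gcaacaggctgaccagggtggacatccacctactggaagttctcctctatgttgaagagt
Gsta2: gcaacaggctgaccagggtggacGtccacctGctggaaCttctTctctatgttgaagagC
Gm3776: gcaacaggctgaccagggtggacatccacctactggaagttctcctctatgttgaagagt

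The same was done for the Pi class, where capitals mark bases that differ from Gstp1 over its coding bases 3 to 62. Gstp2 differed at 6 of these 60 bases and the pseudogene at 5.
Gstp1: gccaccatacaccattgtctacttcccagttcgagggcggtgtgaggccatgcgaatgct
Gstp2: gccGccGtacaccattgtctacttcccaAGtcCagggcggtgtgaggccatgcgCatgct
Gstp-ps: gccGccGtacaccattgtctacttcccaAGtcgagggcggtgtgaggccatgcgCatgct

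The first question was which of these genes differed between the Nrf2 eye and the control eye of a mouse. At P20, 6 of the 7 genes rose in the Nrf2 eyes, with Gsta4 as the exception, beside 2.93% of all 16303 genes tested that were called higher. At P40 all 7 rose, beside 3.33% of 16686. All 7 passed the filter on low counts in both comparisons. Over the 7 genes the median log2 fold change was 3.51 at P20 and 3.42 at P40, against -0.04 and -0.03 over all genes tested. Together the 7 genes took a median of 0.195% of all counts in control eyes and 0.680% in Nrf2 eyes at P20, and 0.253% and 0.998% at P40. The test was edgeR's quasi-likelihood test with mouse as a block and Benjamini-Hochberg adjustment over all genes.

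**Figure D1:**
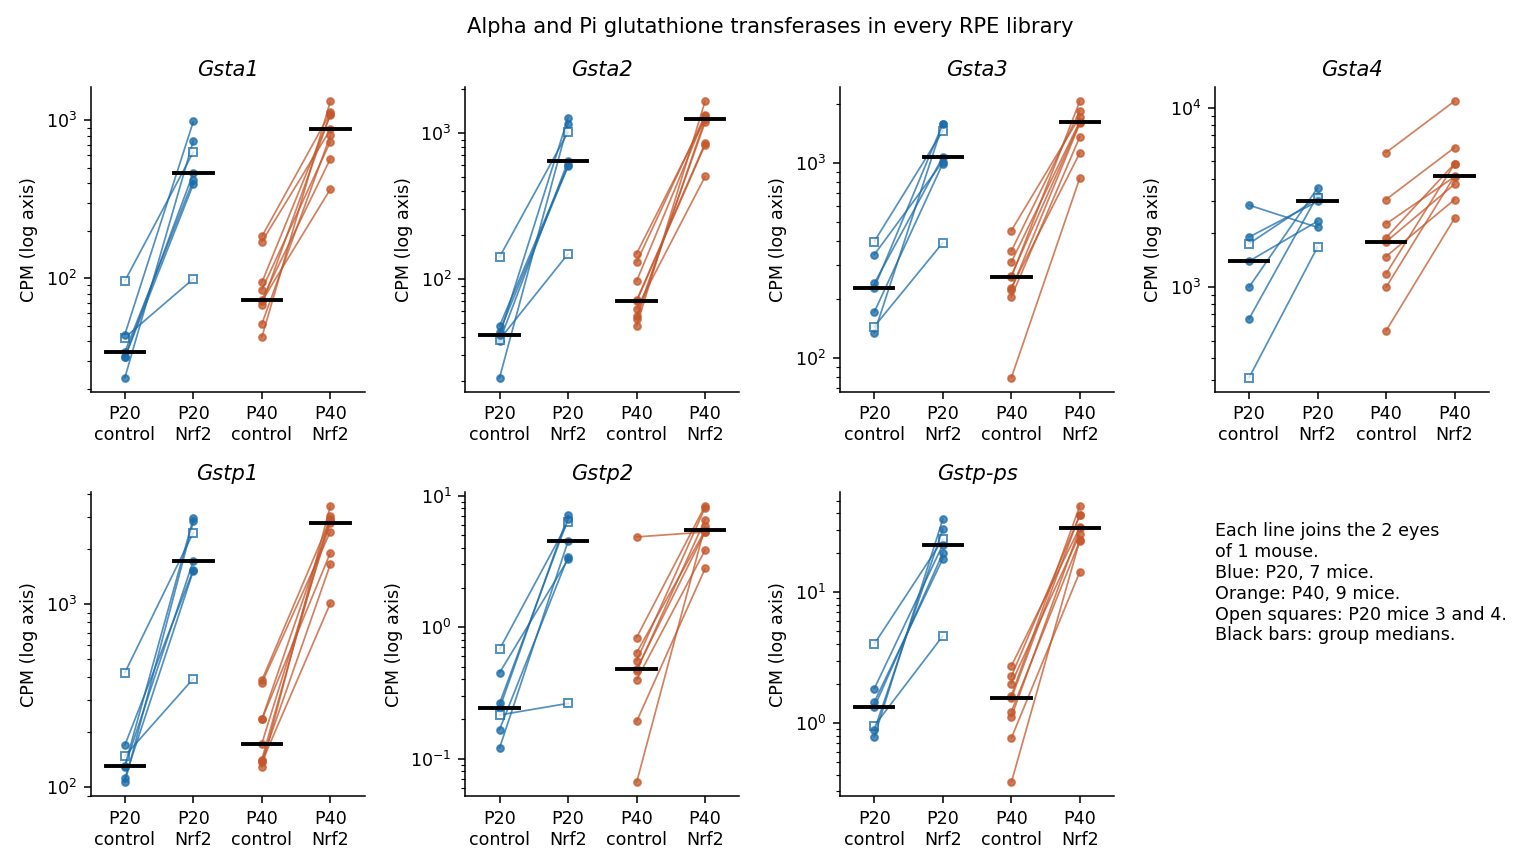
CPM (log axis) of each of the 7 genes in every library, by age and eye, with a line joining the eyes of a mouse, black bars at group medians and open squares for P20 mice 3 and 4. The lines rise in all 16 mice for every gene except Gsta4, which fell in 1 of 7 mice at P20.

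Gsta1, one of the major Alpha enzymes of conjugation, was read in P20 control eyes at a lowest, median and highest level of 23.4, 34.1 and 96.0 CPM, and in the Nrf2 eyes at 99.1, 464 and 983 CPM. The groups did not overlap, although the highest control eye (mouse 3) and the lowest Nrf2 eye (mouse 4) nearly met. At P40 the values were 42.3, 73.0 and 184 CPM in control eyes and 367, 875 and 1323 CPM in Nrf2 eyes, again without overlap. In the fit Gsta1 exceeded its control level by 3.51 on the log2 scale at P20 (SE 0.43, adjusted P = 0.00921) and by 3.27 at P40 (SE 0.30, adjusted P = 7.15e-05).

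Gsta2, its close copy, was at 20.97, 41.0 and 141 CPM in P20 control eyes and at 148, 640 and 1268 CPM in P20 Nrf2 eyes. At P40 it was at 47.3, 70.0 and 149 CPM in control eyes and 503, 1239 and 1650 CPM in Nrf2 eyes. No Nrf2 eye at either age was as low as the highest control eye of that age. On the log2 scale Gsta2 was 3.82 higher at P20 (SE 0.45, adjusted P = 0.00921) and 3.77 higher at P40 (SE 0.27, adjusted P = 1.09e-05).

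Gsta3, the Alpha enzyme with few shared words, was at 134, 229 and 395 CPM in P20 control eyes and at 390, 1074 and 1587 CPM in P20 Nrf2 eyes. There the groups met at 1 eye each, the control eye of mouse 3 and the Nrf2 eye of mouse 4. At P40 the levels were 79.0, 259 and 450 CPM in control eyes and 838, 1614 and 2077 CPM in Nrf2 eyes, without overlap. The fitted log2 rise of Gsta3 came to 2.24 at P20 (SE 0.26, adjusted P = 0.00921) and to 2.58 at P40 (SE 0.19, adjusted P = 1.40e-05).

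Gsta4, the 4-hydroxynonenal enzyme, was at 309, 1387 and 2853 CPM in P20 control eyes and at 1664, 2991 and 3551 CPM in P20 Nrf2 eyes. Its groups overlapped: 3 control eyes were at or above the lowest Nrf2 eye, and in mouse 6 the Nrf2 eye was the lower of the pair. At P40 it was at 566, 1779 and 5610 CPM in control eyes and 2408, 4148 and 10873 CPM in Nrf2 eyes. The P40 groups overlapped as well, with 7 of 9 Nrf2 eyes at or below the highest control eye, yet the Nrf2 eye was the higher in 9 of 9 mice. In log2 units the fitted difference for Gsta4 amounted to 1.17 at P20 (SE 0.37, adjusted P = 0.146) and 1.35 at P40 (SE 0.22, adjusted P = 0.00381). With DESeq2, limma voom or 1 fit over all 32 libraries Gsta4 was also called at P20 (adjusted P = 0.00630, 0.0304 and 0.0384), where these called 12%, 16% and 3.17% of all genes in either direction. Without mouse as a block it was not called at P40 (adjusted P = 0.113), with a log2 fold change of 1.19.

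Gstp1, the main Pi enzyme, was at 106, 130 and 422 CPM in P20 control eyes and at 392, 1728 and 2943 CPM in P20 Nrf2 eyes. As for Gsta3, only the control eye of mouse 3 and the Nrf2 eye of mouse 4 overlapped. At P40 the levels were 129, 173 and 384 CPM in control eyes and 1014, 2795 and 3455 CPM in Nrf2 eyes, without overlap. The fit put the log2 rise of Gstp1 at 3.40 for P20 (SE 0.41, adjusted P = 0.00921) and at 3.51 for P40 (SE 0.28, adjusted P = 2.28e-05).

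Gstp2 was read far more weakly, at 0.120, 0.241 and 0.678 CPM in P20 control eyes and 0.263, 4.49 and 7.07 CPM in P20 Nrf2 eyes. These are 4 to 24 counts per control library and 7 to 333 counts per Nrf2 library. At P40 it was at 0.0659, 0.477 and 4.85 CPM in control eyes, of which 1 library was at the floor of 3 counts, and at 2.79, 5.44 and 8.38 CPM in Nrf2 eyes. The Nrf2 eye was higher in every mouse, but barely so in P20 mouse 4 and P40 mouse 8, where the log2 differences were 0.24 and 0.12. The groups overlapped, since 3 control eyes at P20 were at or above the lowest Nrf2 eye, and 1 control eye at P40 was above 2 Nrf2 eyes. For Gstp2 the eyes differed by 3.68 in log2 units at P20 (SE 0.62, adjusted P = 0.0192) and by 3.42 at P40 (SE 0.52, adjusted P = 0.00205). Without mouse as a block the P40 value was 2.59, still called. At P20 this call was lost in 5 of the 7 fits without 1 mouse, those without mouse 1, 3, 5, 6 or 7 (adjusted P up to 0.0840). The log2 fold change over these 7 fits was 3.45 to 4.09.

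The pseudogene Gstp-ps was at 0.784, 1.32 and 4.01 CPM in P20 control eyes and at 4.62, 23.01 and 36.1 CPM in P20 Nrf2 eyes. At P40 it was at 0.351, 1.54 and 2.72 CPM in control eyes and 14.3, 30.8 and 45.7 CPM in Nrf2 eyes. The groups did not overlap at either age. Gstp-ps stood 3.78 higher in log2 units at P20 (SE 0.42, adjusted P = 0.00921) and 4.42 higher at P40 (SE 0.27, adjusted P = 6.77e-06), where it ranked 5 by P among all genes tested. Since 78.9% of its 31-base words also occur in Gstp1 or Gstp2, how many of its counts came from their transcripts was not tested.

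Because reads of near copies can be assigned to either gene, the copies were also summed before the fit. Gsta1 and Gsta2 as 1 row rose by 3.68 in log2 units at P20 and by 3.53 at P40 (edgeR, adjusted P = 0.00959 and 3.25e-05). Gm3776 and Gm10639, 2 further genes of the cluster, were not in this sum. Gm3776 shares 87.8% of the 31-base words of Gsta1, against 55.5% shared by Gsta2, and Gm10639 shares 56.4% of those of Gsta2, so the sum covers only part of the sharing of these genes. Gstp1, Gstp2 and Gstp-ps as 1 row had 3.40 and 3.51 (adjusted P = 0.00959 and 2.36e-05). Leaving out P20 mice 3 and 4 changed no call at P20, and raised the log2 fold change of Gstp2 from 3.68 to 4.31, the largest shift among the 7.

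Other cell types also differed between the eyes. Of 8 cone markers, 2 were lower in Nrf2 eyes at P20 and 8 were lower at P40, beside 0.485% and 1.23% of all genes tested that were called lower. Their summed level was 39.1 to 931 CPM in control eyes and 17.9 to 94.9 CPM in Nrf2 eyes at P20, and 271 to 2106 CPM and 28.8 to 307 CPM at P40. Beside 2.93% of all genes called higher at P20 and 3.33% at P40, 4 of 8 macrophage markers were higher in Nrf2 eyes at P40, with sums of 80.9 to 461 CPM in control and 128 to 395 CPM in Nrf2 eyes. Of 12 RPE markers, 1 was lower at P20 and 5 were lower at P40. Their sums at P40 were 12062 to 70719 CPM in control eyes (median 39569) and 14758 to 72707 CPM in Nrf2 eyes (median 21592), and at P20 14801 to 31862 CPM (median 22980) and 20288 to 34863 CPM (median 23232). Of 6 fibroblast markers, 1 was higher at P40, with sums of 82.1 to 455 CPM in control and 239 to 687 CPM in Nrf2 eyes. Of the rod markers tested, 1 of 10 was higher at P20, and 1 of 9 was higher and 3 were lower at P40. Their sums were 98.0 to 615 CPM in control and 132 to 588 CPM in Nrf2 eyes at P20, and 172 to 873 CPM and 277 to 654 CPM at P40. Without P20 mice 3 and 4, 1 of 8 cone markers and 1 of 12 RPE markers were lower and 1 of 10 rod markers was higher at P20. In that fit 1 of 7 Müller glia markers was also called higher and 1 of 5 ciliary epithelium markers lower, beside 3.03% of all genes called higher and 1.55% called lower. None of the cone, rod, macrophage or RPE markers was at or under 3 counts in all libraries of a group. The part of these cells in the glutathione transferase counts was not tested, and in RNA from a whole tissue layer fewer cells of a type and less RNA per cell cannot be told apart.

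The size of the response was compared between genes within each mouse, as the log2 CPM of the Nrf2 eye minus that of the control eye. Gsta4 responded least. Its mean difference was 1.20 at P20 and 1.39 at P40, whereas the means of the other genes ran from 2.28 (Gsta3) to 3.86 (Gsta2) at P20 and from 2.62 (Gsta3) to 4.42 (Gstp-ps) at P40. At P40 each of the other 6 genes exceeded Gsta4, by a mean of 1.24 for Gsta3 to 3.03 for Gstp-ps on the log2 scale (two-sided exact sign-flip test, 12 tests, adjusted P = 0.00938 for 5 genes and 0.0156 for Gstp2). The order held in 9 of 9 mice for those 5 genes and in 8 of 9 for Gstp2.

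At P20 each of the 6 genes exceeded Gsta4 in 6 of 7 mice. The difference passed the threshold for Gsta1, Gsta2, Gstp1 and Gstp-ps (exact test, adjusted P = 0.0375 each) but not for Gsta3 (0.0625) or Gstp2 (0.0511). Mouse 4 was the exception for all 6, with a Gsta4 difference of 2.43, the largest at that age. Because mouse 4 alone had the opposite sign, the exact test with any 1 mouse left out is fixed by whether mouse 4 is in the set. The 4 calls were lost in each of the 6 sets that kept mouse 4, where the smallest exact P that these signs allow is 0.0625, and without mouse 4 all 6 genes passed. With the 5 mice left without mice 3 and 4 it cannot reach the threshold. This comparison was chosen after the values had been seen.

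**Figure D2:**
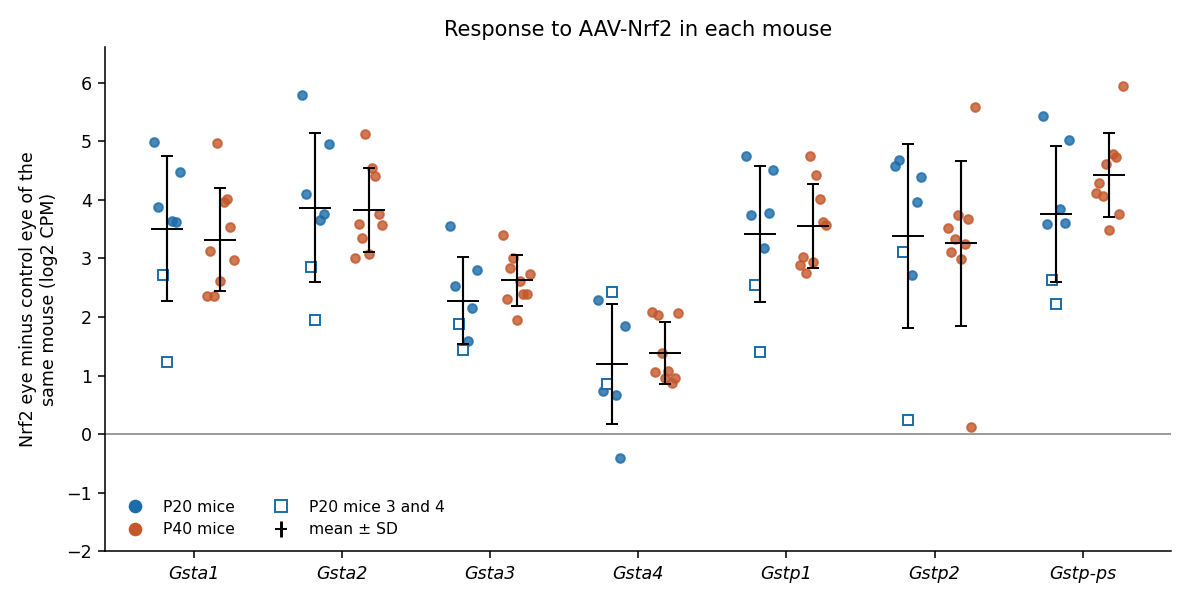
Log2 CPM of the Nrf2 eye minus the control eye of the same mouse for each gene, P20 (blue) beside P40 (orange), 1 point per mouse with the mean and SD in black and open squares for P20 mice 3 and 4. Gsta4 has the lowest mean at both ages (1.20 and 1.39), and its points at P40 lie between 0.88 and 2.09.

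Mice that responded strongly with 1 gene did so with some of the others. Over the 16 mice, the responses of Gsta1, Gsta2 and Gstp1 followed each other closely, with Pearson's r of 0.96 for Gsta1 with Gsta2, 0.95 for Gsta1 with Gstp1 and 0.96 for Gsta2 with Gstp1. Spearman's rho was 0.97, 0.94 and 0.98 (permutation tests over 21 pairs of genes, adjusted P = 7.00e-05 for each r, whose raw P was the smallest the permutations can give). Within P20 these r were 0.97, 0.98 and 0.97 and within P40 0.97, 0.95 and 0.96. Without the 2 mice farthest from the median they were 0.94, 0.92 and 0.96. Gsta1 and Gsta2 share sequence, and neither shares a 31-base word with Gstp1. The part of shared reads in these r was not tested.

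The response of Gsta4 had an r of -0.23 with Gsta1, -0.02 with Gsta2 and -0.16 with Gstp1 (rho -0.20, -0.10 and -0.08, permutation test, adjusted P = 0.454, 0.988 and 0.620 for r). Without the 2 mice farthest from the median these r were -0.24, -0.0035 and 0.19. With Gsta3 it had an r of 0.43 (rho 0.52, adjusted P = 0.128), which was 0.28 within P20 and 0.76 within P40, and 0.70 without the 2 farthest mice. Gsta3 itself had an r of 0.48 with Gsta1, which was 0.84 within P20, -0.01 within P40 and 0.07 without the 2 farthest mice (rho 0.39, permutation test, adjusted P = 0.0894). The r of Gsta3 passed the threshold with Gsta2 (0.63), Gstp1 (0.61) and Gstp-ps (0.70), with adjusted P = 0.0228, 0.0247 and 0.00857 in the permutation test, and with Gstp2 it was 0.54 (0.0550). These 4 r were 0.93, 0.87, 0.86 and 0.79 within P20, but 0.08, 0.09, 0.28 and 0.32 within P40, and 0.30, 0.32, 0.52 and 0.30 without the 2 farthest mice. Their rho was 0.51, 0.51, 0.71 and 0.64 (adjusted P = 0.0715, 0.0715, 0.0129 and 0.0329). All these responses share the same 32 libraries and their scaling.

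Among 11786 other genes with a mean log2 CPM of at least 2, those whose response was most like that of each gene were listed, 3 per gene, as a description. For Gsta1 these were Gm3776 (r = 0.99), Rida, a deaminase that removes reactive imines (0.94), and Rexo2, an oligoribonuclease (0.93). For Gsta2 they were Gm3776 (0.93), Blvrb, which reduces biliverdin and flavins (0.91), and Rida (0.91). For Gsta3 they were Blvrb (0.77), the Mu class transferase Gstm1 (0.76) and the carbonyl reductase Cbr3 (0.75), with an r of 0.94, 0.86 and 0.88 within P20 but 0.33, 0.35 and 0.42 within P40.

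For Gstp1 the list held Rida (0.95), Tmem37 (0.93) and Gm3776 (0.93). For Gsta4 it held other genes, namely Rit1, a Ras-like GTPase (0.93), Pir, which encodes pirin (0.92), and the ribosomal protein gene Rpsa (0.92). Their mean responses were 0.31, 0.94 and 0.08 on the log2 scale, against 1.305 for Gsta4. Gstp2 was most like Zmat3 (0.82), Rock2 (0.80) and Hectd2 (0.79), where Spearman's rho was lower, at 0.75, 0.57 and 0.48. Gstp-ps was most like Unc5b (0.88), Blvrb (0.86, but 0.57 within P40) and Iqsec2 (0.86). No gene appears both for Gsta4 and for another of the 7.

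Levels between genes were compared as CPM per kb of the principal transcript. In control eyes Gsta4 was by far the highest, with a median of 1420 CPM per kb at P20 and 1821 at P40. At P20 it was followed by Gstp1 (158), Gsta3 (157), Gsta2 (47.1), Gsta1 (38.9), Gstp-ps (2.09) and Gstp2 (0.302). At P40 the medians of these genes were 211, 178, 80.5, 83.5, 2.44 and 0.599, so that Gsta1 stood just above Gsta2. In control eyes the neighbours Gstp1 and Gsta3, and Gsta1 and Gsta2, did not differ beyond their spread at either age (exact sign-flip test over eyes, 24 tests, adjusted P between 0.0521 and 0.188).

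In Nrf2 eyes the distance between Gsta4 and the others narrowed. Gsta4 stood at 3061 CPM per kb at P20 and 4246 at P40, and Gstp1 at 2105 and 3405. Gsta4 was still the higher in 6 of 7 eyes at P20 (exact test, adjusted P = 0.0592) and in 9 of 9 at P40 (0.0134). The next places were held by Gsta3 (737) and Gsta2 (736), which were indistinguishable at P20 (0.844), whereas at P40 Gsta2 (1425) exceeded Gsta3 (1108) in 9 of 9 eyes (0.0134). Gsta1 was at 531 and 999.8 CPM per kb, and at P40 it did not differ from Gsta3 beyond the spread (exact test, 0.273). The last places were held by Gstp-ps, at 36.5 and 48.8, and Gstp2, at 5.64 and 6.83. Counts of near copies depend on how shared reads were assigned, so the order of Gsta1 against Gsta2 and within the Pi class is that of the deposited counts.

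**Figure D3:**
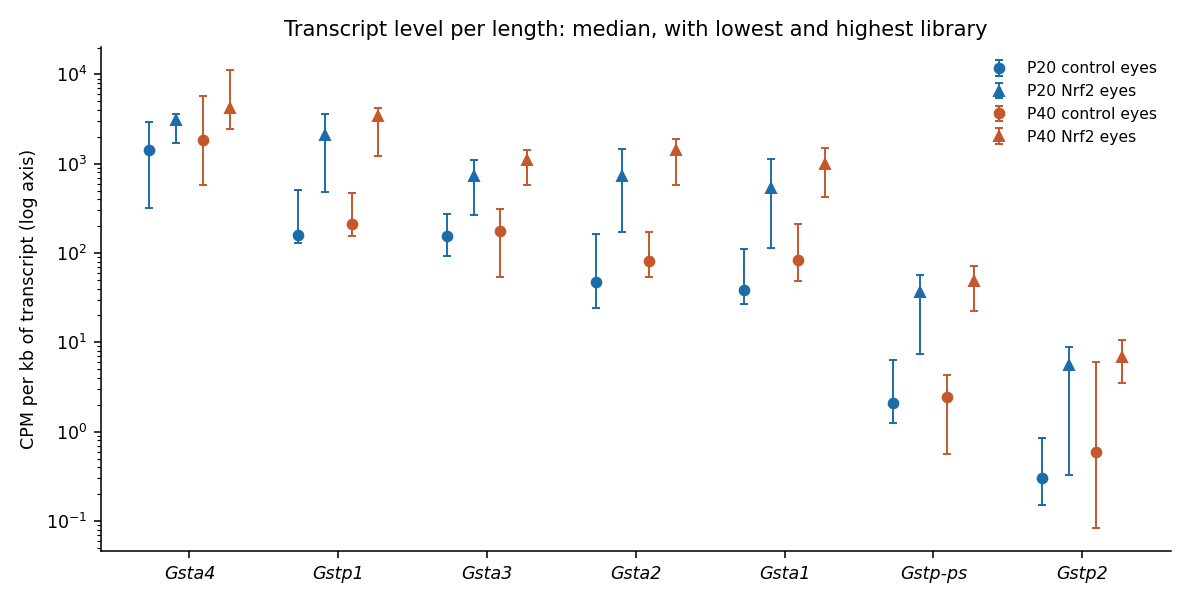
CPM per kb of principal transcript (log axis) for each gene in the 4 groups, as the median with the lowest and highest library, circles for control eyes and triangles for Nrf2 eyes. Gsta4 is the highest in control eyes, with medians of 1420 and 1821, and Gstp1 comes close to it in Nrf2 eyes, with 2105 and 3405.

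The counts of close copies were also compared as ratios. There were 84.3 Gsta1 counts per 100 Gsta2 counts in P20 control eyes (median) and 66.8 in P20 Nrf2 eyes, and 115 and 80.2 at P40. The ratio was lower in the Nrf2 eye in 7 of 7 and 9 of 9 mice, by a mean of -0.35 and -0.50 on the log2 scale (two-sided exact sign-flip test, 6 tests, adjusted P = 0.0312 and 0.0234). With 1 mouse left out at P20, the exact test over these 6 ratios could not reach the threshold. Gstp-ps counts per 100 Gstp1 counts had medians of 0.779 and 1.18 at P20, and of 0.641 and 1.29 at P40. The Nrf2 eye had the larger of these ratios in 5 of 7 mice at P20 (adjusted P = 0.141) and in 8 of 9 at P40 (adjusted P = 0.0234), by the same exact test. Gstp2 counts per 100 Gstp1 counts had medians of 0.161 and 0.226 at P20 and 0.169 and 0.234 at P40. The Nrf2 eye had the larger of these in 5 of 7 and 5 of 9 mice. The mean log2 differences were 0.23 (SD 0.82) and -0.07 (SD 1.74), with adjusted P = 0.600 and 0.891 in the same exact test. These ratios were also compared after the values had been seen, and a change in the assignment of shared reads was not tested.

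**Figure D4:**
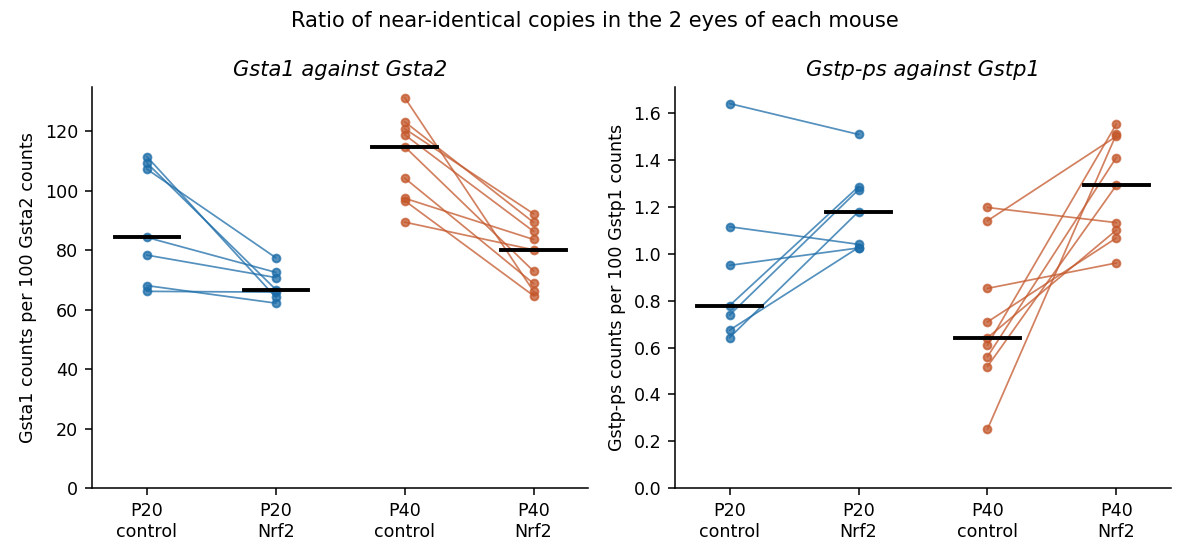
Gsta1 counts per 100 Gsta2 counts (left) and Gstp-ps counts per 100 Gstp1 counts (right) in the eyes of each mouse, joined by lines, with black bars at group medians. The left ratio falls in all 16 mice, from a median of 84.3 to 66.8 at P20 and from 115 to 80.2 at P40.

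The level of each gene in the 16 Nrf2 eyes was set against that of the transgene. For 6 of the 7 genes log2 CPM rose with log2 CPM of the transgene, with Pearson's r between 0.80 for Gsta1 and 0.88 for Gstp2 and Spearman's rho between 0.52 and 0.70 (permutation tests over 7 genes, adjusted P = 0.00283 for each r and 0.0209 to 0.0478 for rho). Gsta4 had an r of 0.34 and a rho of 0.44 (adjusted P = 0.190 and 0.0922).

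Over both ages the relation changed with the eyes included. Without the Nrf2 eye of P20 mouse 4, r over the 15 other eyes fell to between 0.47 and 0.58 for the 6 genes, none passed the threshold after adjustment, and Gsta4 had an r of -0.05. Without the 2 eyes farthest from the median transgene level, which are that eye and the Nrf2 eye of P40 mouse 8, r was 0.68 to 0.83 for the 6 genes and 0.63 for Gsta4, and all 7 passed. Within P20 r was 0.98 or more for the 6 genes and 0.86 for Gsta4 (7 eyes, exact permutation test, adjusted P = 0.00208 to 0.0109). Without mouse 4 the 6 other eyes at P20 still gave an r of 0.93 to 0.98 for the 6 genes (exact permutation test, P = 0.00694 to 0.0194) and of 0.71 for Gsta4 (0.143). Within P40 r was 0.35 to 0.47 for the 6 genes and -0.17 for Gsta4 (9 eyes, exact permutation test, adjusted P from 0.414 to 0.662).

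**Figure D5:**
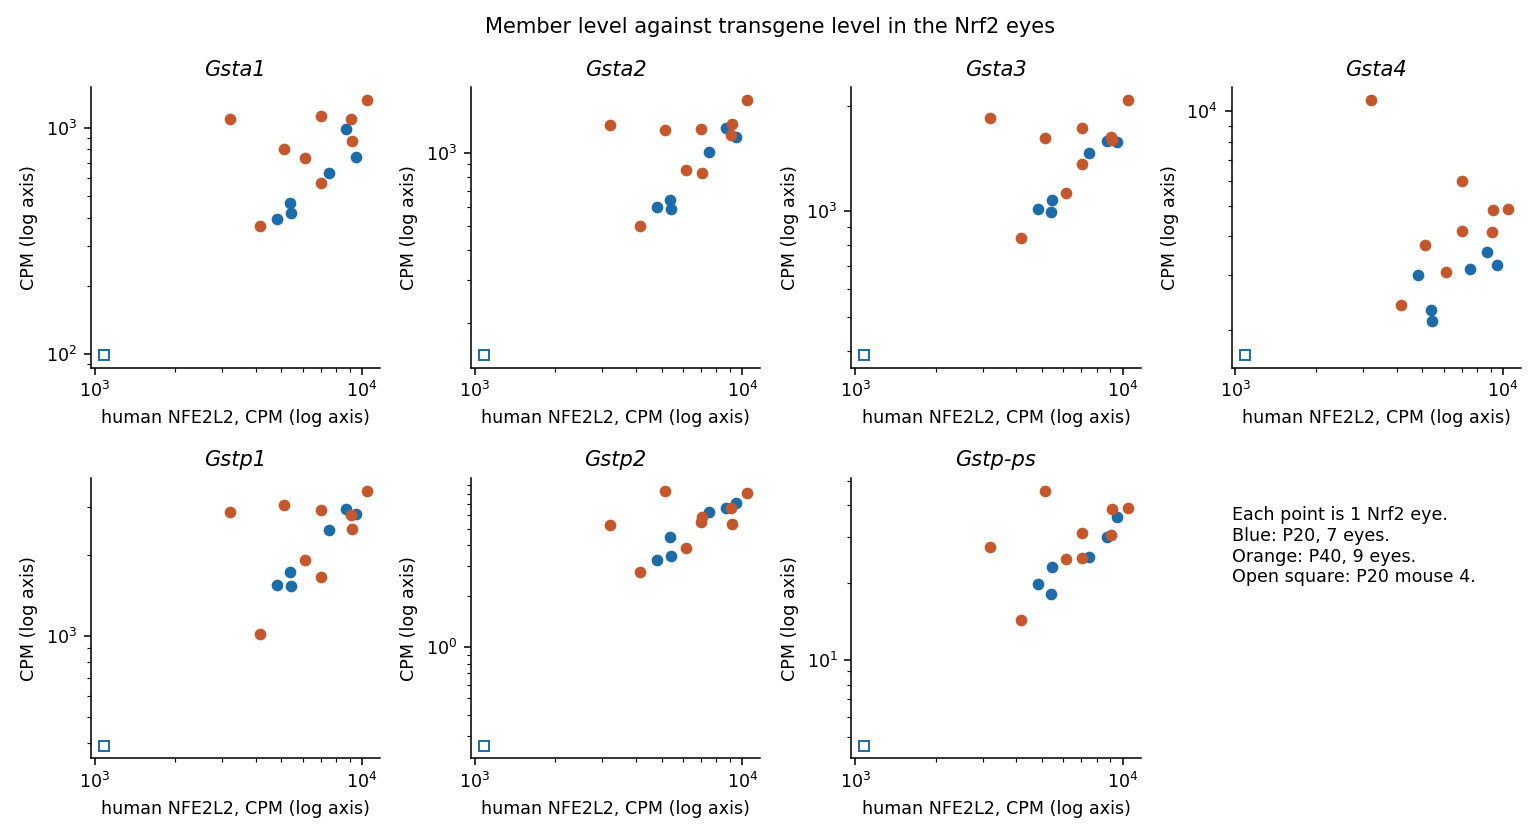
Level of each gene against that of human NFE2L2 in the 16 Nrf2 eyes (CPM, both axes log), blue for P20, orange for P40 and an open square for P20 mouse 4. The P20 eyes lie along a line, whereas at P40 the eye with the lowest transgene level, 3205 CPM (mouse 8), has the highest Gsta4 level, 10873 CPM.

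The genes were next compared between the ages, where the strain of some P40 pairs is in doubt as stated. In control eyes 1 of the 7 genes was called higher at P40, beside 8.34% of all genes tested, and none was called lower. As a count, 1 of 7 is near that share. The gene called was Gsta1, which was 1.16 higher in log2 units (SE 0.35, adjusted P = 0.0381). The call was fragile, since it was kept in 7 of 16 fits without 1 library and in 10 of all 23 alternatives, and adjusted P ranged from 0.00730 to 0.130. It was lost with limma voom (log2 value 0.64, adjusted P = 0.130), without the filter (1.06, 0.0693) and with Gsta1 and Gsta2 summed as 1 row (0.92, 0.0757). It was also lost without P20 mice 3 and 4, where Gsta1 was 1.54 higher (adjusted P = 0.0535) and 0.203% of all genes were called higher. Without the control eye of P20 mouse 3, Gsta2 was called as well (log2 fold change 1.13, adjusted P = 0.0413). That fit called 652 of 17065 genes in either direction. The other 6 genes had log2 fold changes between -0.04 (Gstp-ps) and 1.62 (Gstp2).

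Markers of other cells also differed between the ages in control eyes, where 6.42% of all genes tested were called lower. Of 6 fibroblast markers 4 were lower at P40 (list median -1.16), with sums of 109 to 658 CPM at P20 and 82.1 to 455 CPM at P40. Of 10 inner retina markers 2 were lower (-1.82), with sums of 516 to 2083 CPM and 297 to 1120 CPM. In each of the rod (10 markers) and melanocyte (6) lists 2 were lower, in each of the blood (5), muscle (6) and lens (6) lists 1 was lower, and of 12 RPE markers 1 was lower and 1 higher. None of the 8 cone or 8 macrophage markers was called. Without P20 mice 3 and 4, 1 fibroblast, 1 rod and 1 RPE marker were lower and none of the markers in these lists was higher, beside 0.713% of all genes called lower. The part of these cells in the age differences was not tested.

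In Nrf2 eyes none of the 7 genes was called between P20 and P40 with edgeR, beside 0.502% of all genes tested. Only Gsta4 had an unadjusted P under 0.05. It differed by 0.89 in log2 units (SE 0.30, adjusted P = 0.112), and DESeq2 (0.0299) and limma voom (0.0387) called it. Those tools called 10.9% and 13.2% of all genes in this comparison, so 1 of 7 is near their share. The other 6 had log2 fold changes of 0.38 to 0.76. The age comparisons use the same libraries as those between the eyes.

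Whether the response to Nrf2 differed between the ages was tested as an interaction, which was called for none of the 7 genes with edgeR, beside 0.00557% of all genes tested, nor with DESeq2 or limma voom, and none had an unadjusted P under 0.05. The estimates ran from -0.26 for Gstp2 (SE 0.77) to 0.65 for Gstp-ps (SE 0.47) on the log2 scale. With standard errors of 0.30 to 0.77, a difference in fold of the size of these estimates was not detectable here.

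The genes that supply glutathione, use it, or act on the same substrates were listed by role. Their counts stand beside 2.93% of all genes tested called higher at P20 and 3.33% at P40, and their median log2 fold changes beside -0.04 and -0.03 over all genes. Of 18 other glutathione transferase genes tested, 6 rose in Nrf2 eyes at P20 and 5 at P40, and none fell (medians 0.40 and 0.26). All that rose were of the Mu class, and no gene of another class in this list was called at either age. Gstm1, a Mu class enzyme, rose from 194 ± 302 to 5046 ± 2558 CPM at P20 (SD, 7 eyes each) and from 97.3 ± 64.6 to 7366 ± 4074 CPM at P40 (SD, 9 eyes each), a log2 fold change of 5.36 and 6.24 (edgeR, adjusted P = 0.0134 and 4.37e-06). Gstm3 was at 1.17 ± 0.644 and 1.83 ± 1.08 CPM in Nrf2 eyes, while 6 of 7 and 9 of 9 control eyes were at or under 3 counts.

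Of 10 genes of glutathione supply, 5 rose at each age (medians 1.25 and 1.21), beside the 2.93% and 3.33% of all genes. They included Gclc, the catalytic subunit of the enzyme that makes γ-glutamylcysteine, with log2 fold changes of 4.16 and 4.69 (edgeR, adjusted P = 0.00921 and 8.18e-05). Slc7a11, the cystine importer, had 2.68 and 3.55 (adjusted P = 0.00921 and 0.000145). Of 19 genes that export or process conjugates, 4 rose at P20, and 4 rose and 1 fell at P40 (medians 0.31 and 0.07), where 1.23% of all genes were called lower. The exporter Abcc4 rose by 2.64 and 2.89 and Ggt5, a γ-glutamyl hydrolase, by 2.71 and 3.45 on the log2 scale. The dipeptidase gene Dpep2 fell by 2.02 on the log2 scale at P40 (edgeR, adjusted P = 0.000282), and at P20 its log2 fold change was -0.70 (0.267).

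Of 17 enzymes that oxidize or reduce aldehydes and ketones, 4 rose at each age (medians 0.48 and 0.30), beside the same 2.93% and 3.33%, among them Ptgr1, which reduces unsaturated aldehydes (3.61 and 3.98), and Cbr3 (3.39 and 3.49). Of 8 genes whose proteins are known to work with or bind Pi class enzymes, 1 rose at P20 and 2 at P40 (medians -0.04 and 0.10), beside 2.93% and 3.33% of all genes. Prdx6 had log2 fold changes of 2.33 and 2.49 (edgeR, adjusted P = 0.0101 and 5.77e-05), and the JNK gene Mapk10 had 2.53 and 3.01 (adjusted P = 0.206 and 0.000736).

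Without P20 mice 3 and 4 the counts of genes that rose at P20 were 6, 5, 4, 5 and 1 for the lists of other transferases, glutathione supply, conjugate export, aldehyde enzymes and Pi class partners, beside 3.03% of all genes. The gene added among the aldehyde enzymes was Adh5, a formaldehyde-oxidizing enzyme, at 0.64 (edgeR, adjusted P = 0.0397). The omega class gene Gsto1 and the glutathione-degrading enzyme gene Chac1 were called lower there, at -2.004 and -1.71 (adjusted P = 0.0389 and 0.0340), beside 1.55% of all genes. With all 7 mice these 3 genes had 0.55, -1.48 and -1.31, none of them called (adjusted P = 0.0611, 0.308 and 0.210). They are named because they crossed the threshold, and the lists and markers were refitted without these mice after the values had been seen. Gstm1 was at 79.3 ± 56.8 CPM in control and 5686 ± 2096 CPM in Nrf2 eyes at P20 without these mice (SD, 5 eyes each), a log2 fold change of 6.31.

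Nrf2 binds antioxidant response elements, so the 250 bases before the RefSeq start of each were searched for the antioxidant response element core, as TGACNNNGC and the close form TGAGNNNGC, on both strands. RefSeq promoters (GRCm38.p6) were given for 5 of the 7, all but Gsta4 and Gstp-ps. TGACNNNGC was found in 10.2% and TGAGNNNGC in 14.4% of all 32851 windows of this length. Gstp1 and Gstp2 each held TGAGTCAGC, 74 to 66 and 89 to 81 bases before the start, and Gstp1 also held a reverse match at 9 to 1 bases before it. Gsta3 held TGACATTGC, 121 to 113 bases before the start. The RefSeq starts lay within 73 bases of the start of the principal transcript in the gene models used here, that of Gstp1 being 73 bases downstream of it. The reverse match of Gstp1 therefore lies within the span of that transcript, and its forward match reaches into it. The windows of Gsta2 and Gstp2 lie inside the gene spans given above, because their RefSeq starts are 8643 and 3802 bases downstream of the outermost start annotated for the gene, and those outer starts were not searched. No match was found in the windows of Gsta1 and Gsta2, which says only that these letters are absent there. The 100 bases around each forward match are printed with the match in capitals, for Gsta3 chr1:21240383-21240482 (plus strand), Gstp1 chr19:4037968-4038067 and Gstp2 chr19:4042292-4042391 (both minus strand). A match is not evidence of binding, and binding was not measured.
Gsta3: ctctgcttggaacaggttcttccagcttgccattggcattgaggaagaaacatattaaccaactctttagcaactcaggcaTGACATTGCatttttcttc
Gstp1: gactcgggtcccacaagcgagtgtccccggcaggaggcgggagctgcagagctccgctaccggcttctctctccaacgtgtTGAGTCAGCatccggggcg
Gstp2: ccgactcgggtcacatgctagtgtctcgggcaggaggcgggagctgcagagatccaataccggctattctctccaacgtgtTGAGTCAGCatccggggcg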

How the data were processed

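RPE RNA of both eyes of 16 mice was measured in 32 libraries. Per the study's methods, the authors amplified the RNA, aligned reads to mm10 with STAR and counted them with featureCounts on Ensembl annotation, and in parallel ran Salmon 0.9.1 (version from the submitters' processing notes), summarised to genes with tximport. The authors deposited estimated counts per gene, already whole numbers and not normalized; which counter made them is not given in the sources used here. The values were taken as Salmon estimates, which divide reads shared between near copies.

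Samples were grouped by their labels. Of 34453 rows, 34402 had a symbol. Counts were tested in R 4.3.3 with edgeR 4.0.16 (filterByExpr, TMM, quasi-likelihood test, Benjamini-Hochberg over all genes, threshold 0.05), with mouse as a block between eyes and none between ages. The pairing comes from the labels. Deviations from the group means were correlated between the eyes of a mouse by 0.0213 on average at P20 and 0.0990 at P40 (Pearson's r). CPM used TMM library sizes, and log2 CPM a prior count of 2. Levels per kb were tested as log2 with a pseudocount of 0.01. The floor of 3 counts was 0.0566 to 0.182 CPM.

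Alternatives were DESeq2 1.42.0, limma 3.58.1 voom with quality weights, RLE normalization, no filter, at least 10 counts in every library, summed copies, no block, 1 fit over all libraries, fits without P20 mice 3 and 4, and leaving out each mouse or library. The tests were checked on simulated data first. The 7 genes and the gene lists were chosen with earlier results of these data known. Gene models and transcripts came from GENCODE M21 (GRCm38), and promoters from RefSeq. Named genes are the 7, the 3 most alike in response to each, and from each list the 2 largest rises and the largest fall past the threshold at P40. Labels name an individual per mouse, so replicates are separate mice. No protein sequences and no sequence of the genome as a whole were used here.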

Additional observations from a re-analysis of the deposited data

Results flagged for a closer look

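A library stood apart from the others of its group, by Dixon's ratio on log2 CPM, in 9 of 28 checks of a gene in a group. Chance alone gives about 1 in 20 such checks, but the 7 genes share the same libraries, so the checks are not independent. Of the 9, 6 concern the Nrf2 eye of P20 mouse 4, which was the lowest of its group for all 7 genes, although for Gsta4 (1664 CPM, next 2143) the gap was too small to count. It held 99.1 CPM of Gsta1 (the next lowest eye 394), 148 CPM of Gsta2 (next 590) and 390 CPM of Gsta3 (next 993). It also held 392 CPM of Gstp1 (next 1525), 0.263 CPM of Gstp2 (next 3.28) and 4.62 CPM of Gstp-ps (next 17.97). The transgene in this eye was at 1082 CPM, the lowest of the Nrf2 eyes.

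The control eye of P20 mouse 3 was high for Gsta2, at 141 CPM (next 47.5), and for Gstp1, at 422 CPM (next 170). The transgene in this eye was at 1098 CPM, the highest of the control eyes. The control eye of P40 mouse 1 was low for Gsta3, at 79.0 CPM (next 205), and its transgene level was 0.383 CPM.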

How the results depend on the processing

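The number of the 7 genes called between the eyes stayed within 1.5 times at both ages under every alternative. With copies summed, Gsta1 and Gsta2 shared 1 fitted row, as did Gstp1, Gstp2 and Gstp-ps, so that count repeats the calls of these rows. Without the replicate block, 6 genes were called at P20, 6 at P40 and 0 for the difference between the ages. Over all genes, 556 were called at P20, against 1093 without the block, 1951 with DESeq2, 2605 with limma voom and 348 without the filter, and 111 to 1999 without 1 mouse. At P40 it was 762, against 1380 with DESeq2 and 1327 with limma voom. For age in control eyes it was 2483, against 4383 with DESeq2, 3747 with limma voom, 914 without the filter, 158 without P20 mice 3 and 4 and 473 to 4273 without 1 library. For age in Nrf2 eyes it was 84, against 1832 with DESeq2, 2213 with limma voom, 31 without the filter, 20 without P20 mice 3 and 4 and 21 to 190 without 1 library. For the difference between ages it was 1, against 12 with DESeq2. For age in control eyes 1 gene was called, but 0 with limma voom, without the filter, with copies summed and without P20 mice 3 and 4, and 0 to 2 without 1 library. For age in Nrf2 eyes 0 were called, but 1 each with DESeq2 and limma voom. The transgene relation passed for 6 genes, and for 0 to 7 without 1 eye, 0 being without that of P20 mouse 4 and 7 without that of P40 mouse 8. In P40 control eyes Gsta3 over Gsta1 per length missed the threshold without any 1 of 7 of the 9 eyes. Without P20 mice 3 and 4 no exact sign-flip test at P20 could pass. The causes of the other changes were not tested.

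Direction was reversed only in values that passed no test. The Gstp-ps log2 change with age in control eyes (-0.04) was 0.30 without P20 mice 3 and 4 and -0.23 to 0.36 without 1 library. With copies summed, the 1 row of Gstp1, Gstp2 and Gstp-ps had 0.37, which is a value of the sum and not of Gstp-ps. The difference of the Nrf2 effect was 0.11 in that summed row, against -0.26 for Gstp2 alone, and for Gstp1 it was -0.45 without P20 mice 3 and 4. Without 1 mouse it ranged from -0.58 to 0.0096 for Gsta1, -0.35 to 0.26 for Gsta2, -0.0774 to 0.39 for Gsta4, -0.20 to 0.34 for Gstp1 and -0.69 to 0.0431 for Gstp2. Leaving out 1 mouse or eye gave a range of -0.44 to 0.36 for the log2 change in Gstp2 per Gstp1 at P40, -0.15 to 0.0292 for Gsta3 over Gsta2 per length in P20 Nrf2 eyes and -0.0485 to 0.74 for r of Gsta4 with the transgene. With at least 10 counts required in every library, Gstp2 gave no value in these comparisons. Gstp2 was read at 3 to 80 counts in control eyes, so counting error there is large.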

Other observations

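Beside the 7 genes, the chromosome 9 cluster holds Alpha-like genes with predicted-gene names, which were looked at after their values were seen because they share sequence with Gsta1 and Gsta2. Gm3776 shares 87.8% of the 31-base words of Gsta1, and Gm10639 shares 56.4% of those of Gsta2. Gm3776 was at 23.02 ± 9.93 CPM in P20 control eyes and 202 ± 103 CPM in P20 Nrf2 eyes (SD, 7 eyes each), and at 54.4 ± 30.4 and 350 ± 136 CPM at P40 (SD, 9 eyes each). Its log2 fold change with Nrf2 was 3.00 at P20 and 2.69 at P40 (edgeR, adjusted P = 0.00987 and 0.000430), and between P20 and P40 in control eyes 1.29 (adjusted P = 0.0287), beside 8.34% of all genes called higher. Without P20 mice 3 and 4 the age value of Gm3776 was 1.56 and no longer called (edgeR, adjusted P = 0.0548), while its P20 value of 3.505 was still called (0.00216). Gm10639 had log2 fold changes with Nrf2 of 4.26 and 4.3003 (edgeR, adjusted P = 0.00921 and 4.00e-05), and of 0.89 with age in control eyes (0.192).

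The mouse gene Nfe2l2 has a row apart from the human transgene, and how reads alike in both were assigned was not tested. It was at 69.4 ± 12.8 CPM in control and 85.0 ± 7.57 CPM in Nrf2 eyes at P20 (SD, 7 eyes each), and at 92.8 ± 15.6 and 104 ± 35.9 CPM at P40 (SD, 9 eyes each). Gstp3, the third Pi gene of chromosome 19, was at or under 3 counts in 25 of 32 libraries.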
